A study of Mus musculus with 8 samples.

Results

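This account concerns 9 cartilage genes in the cochlea of mice that lack miR-29a, a microRNA whose family is known to repress many extracellular matrix (ECM) genes. They were taken by name from the 21895 genes of the deposited table, and all 9 were found there: Clec3a, Comp, Acan, Matn1, Matn3, Matn4, Hapln1, Chad and Sox9. The group was chosen by measured values, since Comp was higher and Clec3a lower in the knockout (KO) in an earlier look at the same libraries. The KO and wild-type (WT) values of the 9 genes are therefore described here without a p-value per gene. The table holds 4 WT libraries and 4 miR-29a-/- libraries (WT1 to WT4, KO1 to KO4), each made from total RNA of the cochlea after ribosomal RNA was removed. Both genotypes were on the C57BL/6 background, the deletion was carried in the whole animal, and both sexes were used in the study. The design text of the series gives the age as 21 days, whereas the methods of the paper give 2 months. The sources do not say whether each library came from a separate mouse, so the errors and p-values below measure the spread between libraries, which may be technical.

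Cartilage is built by chondrocytes, which embed themselves in fibrils of collagens II, IX and XI and in a gel of aggrecan bound to hyaluronan through link protein. Matrilins, COMP and chondroadherin connect the fibrils with the gel and with the cells, and the transcription factor SOX9 drives the programme. In the mammalian inner ear the capsule around the cochlea forms on a cartilage model that is replaced by bone, and collagens II, IX and XI are also laid down in the tectorial membrane, the gel over the hair cells. SOX9 is likewise made by supporting cells of the sensory epithelium. A whole-cochlea library can therefore take reads of these genes from several sources, and in such bulk samples fewer cells of a type cannot be told apart from less RNA per cell.

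Because the deleted gene is a microRNA, the 3′-UTRs of the 9 genes were searched for TGGTGCT, the 7 bases that pair with nucleotides 2 to 8 of miR-29a. The mature microRNA, from RefSeq on GRCm38.p6, is printed with those seed nucleotides in capitals, and the 2 matches found are printed below it with the 7 bases in capitals.
mmu-miR-29a-3p: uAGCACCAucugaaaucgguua
Matn3 3′-UTR: ctggctatgaacttaTGGTGCTaagatttt
Hapln1 3′-UTR: acttagtataggaaaTGGTGCTgatcaaaa
The Matn3 window lies at chr12:8971185-8971214 and the Hapln1 window at chr13:89610215-89610244, both on the plus strand of GRCm38 and inside the gene's annotated 3′-UTR in GENCODE M21. In Matn3 the match covers bases 625 to 631 of the 1453 in the 3′-UTR, and an A follows it. In Hapln1 it covers bases 2081 to 2087 of 3503, and no A follows. Comp, Acan, Matn1, Matn4, Chad and Sox9 hold 0 such matches in their longest annotated 3′-UTRs, which run from 263 to 2250 bases. For Clec3a the annotation has 1 transcript of 591 bases without a 3′-UTR, so no search was possible there. RefSeq carries the Clec3a gene on to position 114428133 of chromosome 8, past the end at 114425846 in the deposited table. Of the 14837 genes tested below that have a 3′-UTR, 16.7% hold the 7 bases. The 2 matches lie among the 8 cartilage genes with a 3′-UTR, but Matn1 and Matn3 of these were not tested. Among the tested ones only Hapln1 holds a match. So few genes can neither show nor exclude an excess over that share. The Hapln1 3′-UTR is also longer than the median of 1346 bases over the tested genes that have one.

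Levels are given as FPKM (fragments per kilobase of transcript, scaled to the mapped fragments of each library). Comparisons between genes hold only as far as the transcript lengths used, which are not known, are right. Some facts of the whole table bear on all levels. Total FPKM ranged from 249221 to 288695 between libraries, and the number of reads behind a value is unknown. WT1 and WT3 stood apart, with a median correlation across genes with the other libraries of 0.852 and 0.850, against 0.910 to 0.937 in the other 6. The summed FPKM of 7 marrow markers was highest in WT1, at 11200, and lowest in WT3, at 200.4, while the 6 others lay between 1443 and 9235. Of these markers, Elane, Mpo, S100a8, S100a9 and Ngp were highest in WT1. The globin genes Hba-a1 (828 in WT1, 1261 in KO3) and Hbb-bt (1799 in WT1, 3623 in KO3) were not. Among 8 osteoblast markers (Bglap, Ibsp, Dmp1, Col1a1 and others), the sum was 111.4 in WT3 and 480.2 to 851.2 in the other libraries. Skeletal muscle markers reached a sum of 307.6 in KO3 and at most 35.79 elsewhere. The cochlear markers Coch, Otos, Tecta, Otoa, Myo7a, Slc26a5, Kcnq1 and Kcne1 were above 0 in every library, and their sum overlapped between genotypes, at 1307 to 2039 in WT and 1483 to 1939 in KO. The deleted microRNA has no row in the table, and its level was not analysed here.

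Clec3a fell in KO, and its libraries separated completely by genotype. Clec3a (ENSMUSG00000008874, chromosome 8 from 114418086 to 114425846) encodes a small C-type lectin of the tetranectin family that is found in cartilage. Its FPKM was 4.09, 3.30, 5.72 and 4.06 in WT1 to WT4 and 1.05, 1.40, 1.02 and 1.94 in KO1 to KO4. The highest KO library thus lay below the lowest WT library. The means were 4.29 ± 1.02 in WT and 1.35 ± 0.428 in KO (SD, n = 4). On the log2(FPKM + 0.1) scale, the limma fold change of KO against WT was -1.61 (standard error 0.27, 95% interval -2.221 to -1.003). Leaving out single libraries gave values from -1.79 to -1.47, and the value was -1.42 without WT1 and WT3 together. With a pseudocount of 1, the same difference was -1.17.

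Comp was higher in KO on average, but the size of the difference rested on WT1 and WT3. COMP (cartilage oligomeric matrix protein, ENSMUSG00000031849, chromosome 8 from 70373558 to 70382066) is a thrombospondin that binds fibrillar collagens and is made in cartilage, tendon and ligament. Its FPKM was 3.13, 6.73, 1.76 and 9.50 in WT1 to WT4, and 13.6, 12.3, 11.7 and 8.19 in KO1 to KO4. The groups overlapped, since WT4 lay above KO4. The WT mean was 5.28 ± 3.51 and the KO mean 11.5 ± 2.31 (SD, n = 4), a log2 fold change of 1.35 (standard error 0.48, 95% interval 0.26 to 2.44). Leaving out WT3 gave 0.93 and leaving out WT1 gave 1.20, whereas without both it was 0.49 (standard error 0.23). In the libraries numbered 1 to 3, the number per group used in the paper, the value was 1.87.

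Aggrecan and its link protein differed less between the genotypes than Clec3a, and their groups overlapped. Aggrecan (Acan, ENSMUSG00000030607, chromosome 7 from 79053483 to 79115099), the large proteoglycan that holds water in cartilage, had an FPKM of 5.004, 7.93, 10.02 and 8.31 in WT1 to WT4. In KO1 to KO4 it was 5.87, 5.23, 6.73 and 7.39, all within the WT range. The log2 fold change of Acan was -0.27 (standard error 0.23, 95% interval -0.80 to 0.25), and -0.47 without WT1. Hapln1 (ENSMUSG00000021613, chromosome 13 from 89539796 to 89611652), the link protein that locks aggrecan to hyaluronan, had an FPKM of 2.85, 2.66, 5.15 and 3.17 in WT and 5.78, 5.58, 3.77 and 4.57 in KO. Its KO libraries lay above WT1, WT2 and WT4, and WT3 fell among them. The log2 fold change of Hapln1 was 0.53 (standard error 0.25, 95% interval -0.04 to 1.10), and 0.73 without WT3.

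The 3 matrilins, adaptor proteins that cross-bridge cartilage fibrils and proteoglycans, differed widely in level. Matn4 (ENSMUSG00000016995, chromosome 2) was at 0.705 in WT1 and at 3.38, 4.12 and 5.10 in the other WT libraries, against 3.04, 4.34, 3.46 and 4.51 in KO. WT1 lay far below all other libraries, and the log2 fold change of Matn4 moved from 0.47 (standard error 0.54) to -0.125 (standard error 0.21) when WT1 was left out. Matn1 (ENSMUSG00000040533, chromosome 4), typical of hyaline cartilage, was low, with an FPKM of 0.0572, 0.507, 0.743 and 0.152 in WT and 0.177, 0.0225, 0.137 and 0.0666 in KO. The Matn1 groups overlapped. Matn3 (ENSMUSG00000020583, chromosome 12), a matrilin of the growth plate, was listed at 0 in all 4 WT libraries and in KO3, and at 0.0252, 0.0374 and 0.0587 in KO1, KO2 and KO4. The mean of Matn1 and Matn3 was under the minimum of 0.5 FPKM set for testing, so 7 of the 9 genes entered the fit. Sox9, Acan and Col2a1 were well above 0 in every library, and so were the cartilage genes Cnmd (at least 33.7 FPKM) and Ucma (at least 14.4). Since SOX9 and collagen II are also made elsewhere in the inner ear, these levels alone cannot show that cartilage was in the libraries. By contrast Matn1 and Matn3 were low, reaching at most 0.743 and 0.0587. Col10a1, Hapln3, Snorc and Ihh, also cartilage genes, were under the minimum as well.

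Chad and Sox9 varied less. Chondroadherin (Chad, ENSMUSG00000039084, chromosome 11), a leucine-rich repeat protein that anchors chondrocytes to the matrix, had an FPKM of 7.20, 6.08, 4.54 and 6.70 in WT and 10.2, 5.70, 8.98 and 7.54 in KO. KO1, KO3 and KO4 exceeded every WT library and KO2 did not, and the log2 fold change was 0.38 (standard error 0.22, 95% interval -0.13 to 0.89). Sox9 (ENSMUSG00000000567, chromosome 11) had the highest level of the 9 genes, at 17.5, 26.7, 32.5 and 21.8 in WT and 27.4, 21.6, 21.7 and 25.7 in KO. The 95% interval of its log2 fold change ran from -0.46 to 0.46, so differences of that size in either direction remain compatible with these libraries.

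Of the 7 tested members, 1 was higher and 1 lower in KO at an unadjusted limma p-value under 0.05, the threshold of the study, and Clec3a alone had separate groups. Over all 14990 tested genes, 4.61% were called higher, 0.507% lower and 5.12% in either direction, and the groups did not overlap for 3.5%. Since this contrast was used to choose the members, the share is given for reference only. Clec3a was called whichever single library was left out, whereas Comp was not called without KO1 or without WT1 and WT3 together. Acan was called lower without WT1, Hapln1 higher without WT3, without KO3 or without WT1 and WT3 together, and Chad higher without KO2. These refits reuse the libraries and contrast that chose the members. They show only how far a call depended on single libraries, and are not a test of any member. The 767 genes called over the table were 691 higher and 76 lower, and 0 genes passed a Benjamini-Hochberg adjusted p-value of 0.05 in limma. Without further scaling, the median over all tested genes was 0.10 on the log2 scale, and after rescaling of the libraries by their median gene-wise ratio it was 0.0042, with 403 genes higher and 361 lower. That rescaling gave -1.71 for Clec3a, 1.25 for Comp, -0.37 for Acan, 0.43 for Hapln1, 0.38 for Matn4, 0.28 for Chad and -0.10 for Sox9.

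**Figure D1:**
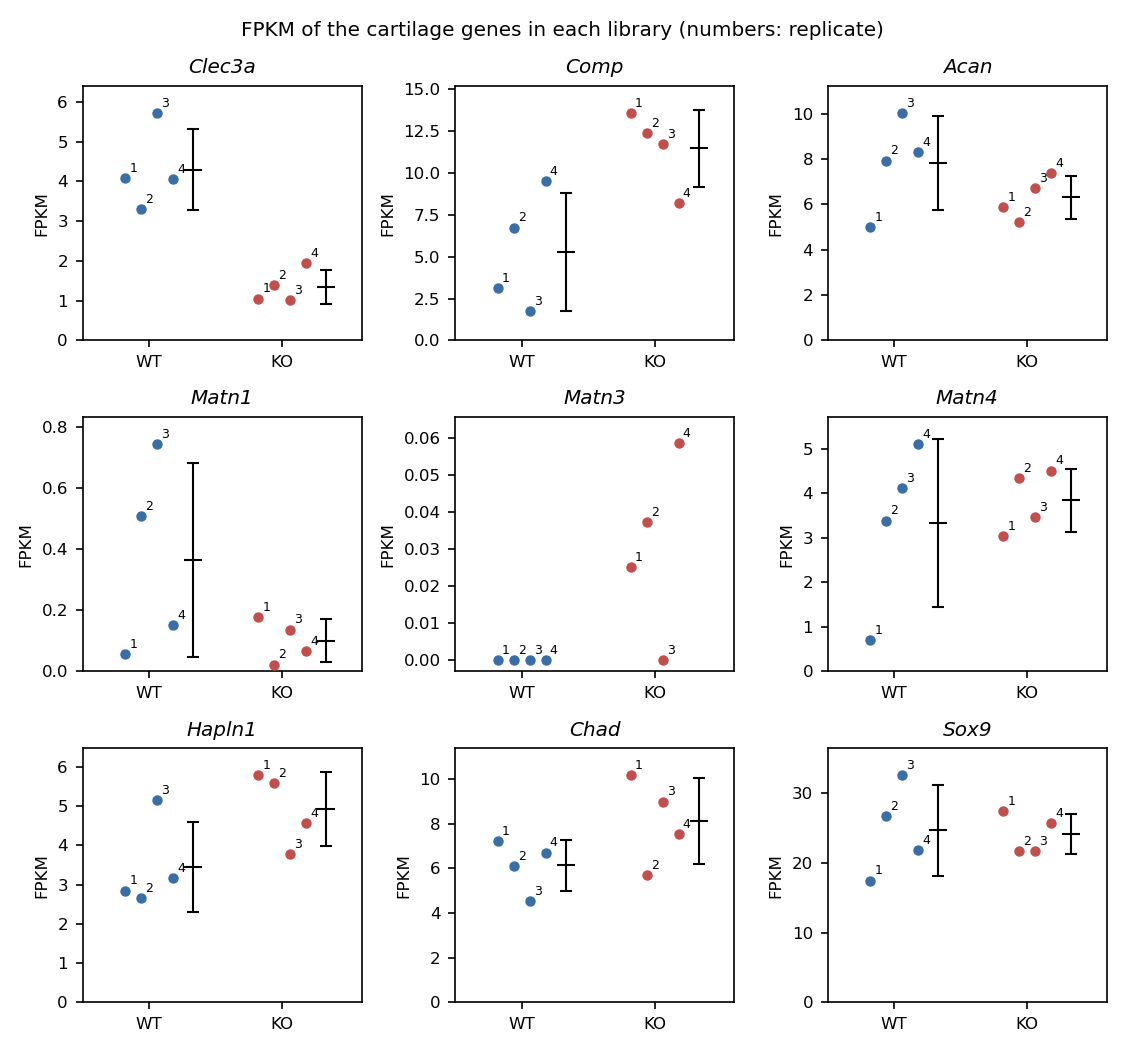
FPKM (vertical axis, linear) of each of the 9 cartilage genes in the 4 WT (blue) and 4 KO (red) libraries, with the replicate number beside each point and the mean with SD as a black bar (none for Matn3). Clec3a shows separate groups, Comp has WT4 above KO4, and Matn4 has WT1 at 0.705, below all other libraries.

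By mean level, Comp stood higher and Clec3a lower in the order of the 9 genes in KO than in WT, and Acan and Chad changed places. By mean FPKM in WT, Sox9 was followed by Acan (7.82), Chad (6.13), Comp (5.28), Clec3a (4.29), Hapln1 (3.46) and Matn4 (3.33), and then by Matn1. Neighbours from Acan down to Matn4 overlapped in their ranges over the WT libraries, and only Sox9 stood clear above the rest. In KO, Sox9 was followed by Comp (11.5), Chad (8.10), Acan (6.31), Hapln1 (4.93), Matn4 (3.84) and Clec3a (1.35). Neighbours from Comp down to Matn4 again overlapped, whereas the Clec3a range of 1.02 to 1.94 lay below all KO values of Matn4 and above all those of Matn1. The place of Clec3a in both orders also depends on the transcript length used for it, since RefSeq carries this gene further than GENCODE M21.

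Ratios within a library do not depend on how libraries are scaled. The log2 ratio of Comp to Acan was -0.68, -0.24, -2.51 and 0.19 in WT1 to WT4 and 1.21, 1.24, 0.80 and 0.15 in KO1 to KO4, so that KO4 fell just below WT4. For Clec3a to Acan it was -0.29, -1.27, -0.81 and -1.03 in WT and -2.48, -1.91, -2.72 and -1.93 in KO, with no overlap. Hapln1 to Acan was -0.81, -1.58, -0.96 and -1.39 in WT against -0.02, 0.09, -0.83 and -0.69 in KO, and only KO3 lay within the WT range. Clec3a was therefore lower and Comp on average higher per unit of Acan as well. KO4 was the KO library nearest to WT for Comp to Acan, and KO2 and KO4 were nearest for Clec3a to Acan. These ratios use the same contrast as the choice of the genes and were not tested.

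The other genes of the cartilage programme were taken as 56 genes in 8 lists by role, of which 52 passed the minimum level. In limma on all 8 libraries, 6 of the 52 rose in KO and 0 fell, beside 4.61% and 0.507% of all tested genes, and 39 of the 52 had a fold change above 0, where 66.5% of all genes did. Their median log2 fold change was 0.21, against 0.10 over all genes. The lists were drawn up with earlier results of these data known, so these shares are given for reference only. The 6 were Chst3, Prg4, Col11a1, Chsy1, Pth1r and Cilp2, and none passed the adjusted threshold, with limma adjusted p-values of 0.922 to 0.947. After median-ratio rescaling, Chst3, Col11a1, Pth1r and Cilp2 were still called.

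Among enzymes that make the sulfated chains of proteoglycans, 2 of 8 rose. Chst3, which sulfates chondroitin, had an FPKM of 2.61, 4.18, 2.64 and 4.47 in WT and 7.27, 12.4, 5.75 and 6.68 in KO. Every KO library exceeded every WT library, and the log2 fold change was 1.16 (standard error 0.29, limma unadjusted p = 0.00332, adjusted p = 0.922). Chsy1, a chondroitin synthase, had 9.66 ± 0.708 in WT and 12.3 ± 0.977 in KO (SD, n = 4), again without overlap, and a log2 fold change of 0.35 (standard error 0.13, limma unadjusted p = 0.0222, adjusted p = 0.947). Xylt1, which starts the chains, had a log2 fold change of 0.12 (standard error 0.28). Chst3 ranged from 0.93 to 1.30 and Chsy1 from 0.30 to 0.39 as single libraries were left out, and without WT1 and WT3 together Chsy1 was no longer called (0.27, standard error 0.13).

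Of the 6 tested cartilage collagens, Col11a1 rose and the others did not pass. Col11a1, a chain of the collagen XI that nucleates cartilage fibrils, had an FPKM of 21.5, 28.8, 15.8 and 26.3 in WT and 36.2, 47.5, 29.7 and 35.5 in KO, with separate groups and a log2 fold change of 0.70 (standard error 0.22, limma unadjusted p = 0.0118, adjusted p = 0.947). Without WT1 and WT3 it was 0.42 (standard error 0.19) and not called. Col2a1, the main fibril collagen, had 13.7, 44.5, 33.7 and 45.7 in WT and 41.1, 49.4, 49.4 and 79.6 in KO, a log2 fold change of 0.77 (standard error 0.39). The chains of collagen IX, which coats the fibrils, and Col11a2 also moved when WT1 was left out, Col11a2 from 0.63 to 0.06. Col9a2 was at 2.56 in WT1, at 31.5, 39.8 and 29.5 in WT2 to WT4, and at 17.3, 17.0, 17.8 and 28.4 in KO. The Col9a2 log2 fold change was 0.15 (standard error 0.78) in all libraries and -0.76 (standard error 0.20, limma unadjusted p = 0.00567, adjusted p = 0.148) without WT1. Col9a3 went from -0.12 to -0.83 and Col9a1 from -0.16 to -0.63 in the same way, and both were then called lower. Without WT1, 18 of the 52 genes were called, 12 higher and 6 lower, where the whole table gave 1810 higher and 1112 lower.

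Among other matrix proteins of cartilage and joint, 2 of 12 rose. Lubricin (Prg4), which coats joint surfaces, had an FPKM of 7.89, 4.52, 5.66 and 5.33 in WT and 9.69, 10.5, 9.53 and 7.77 in KO, with KO4 just below WT1. Its log2 fold change was 0.69 (standard error 0.20, limma unadjusted p = 0.00686, adjusted p = 0.947), and 0.91 (standard error 0.17) without WT1 and WT3. Cilp2 had 0.463 in WT1 and 2.05, 2.91 and 3.02 in WT2 to WT4, against 3.53, 3.42, 4.99 and 4.80 in KO, a log2 fold change of 1.20 that was 0.63 without WT1. Matn2, the remaining matrilin, had a log2 fold change of 0.29 (standard error 0.32), and Hapln3, another link protein, was under the minimum level, with at most 0.234 FPKM.

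Of 9 tested chondrocyte regulators, Pth1r, the receptor for parathyroid hormone-related protein, rose by 0.77 on the log2 scale (standard error 0.32, limma unadjusted p = 0.043, adjusted p = 0.947). Its FPKM was 7.78, 16.5, 6.53 and 15.98 in WT and 14.95, 22.003, 16.8 and 20.7 in KO, with WT1 and WT3 lowest, and without these 2 libraries the value was 0.18. The SOX9 partners Sox5 and Sox6 had log2 fold changes of -0.16 (standard error 0.23) and 0.49 (standard error 0.26). None of 7 proteases and inhibitors that act on aggrecan, 4 thrombospondins, the tetranectin gene Clec3b or 5 lecticans, link proteins and partners of neural tissue passed in limma on the 8 libraries. Among these, Adamts1 and Adamts4, which cut aggrecan, had values of 0.02 (standard error 0.19) and -0.03 (standard error 0.42), and Thbs1 and Thbs2, relatives of Comp, had 0.41 (standard error 0.44) and 0.12 (standard error 0.14). Clec3b, the closest relative of Clec3a in the lists, had a log2 fold change of 0.94 (standard error 0.50, 95% interval -0.20 to 2.09). The brain lecticans Bcan and Ncan had -0.01 (standard error 0.44) and -0.16 (standard error 0.44).

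**Figure D2:**
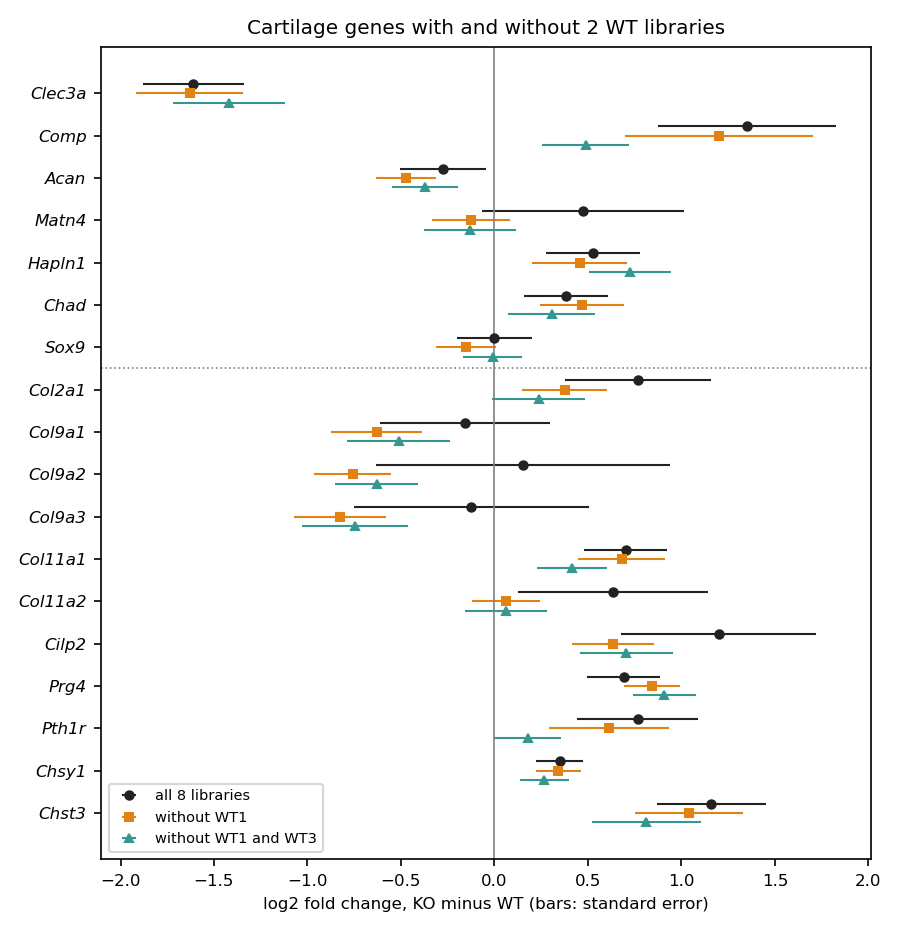
Limma log2 fold change of KO against WT (horizontal axis, bars are standard errors) for the 7 tested members (above the dotted line) and for the cartilage collagens and other called cartilage genes (below it), in all 8 libraries (circles), without WT1 (squares) and without WT1 and WT3 (triangles). Clec3a stays between -1.63 and -1.42, Comp goes from 1.35 to 0.49, and the collagen IX genes go to -0.83 to -0.63 without WT1.

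**Figure D3:**
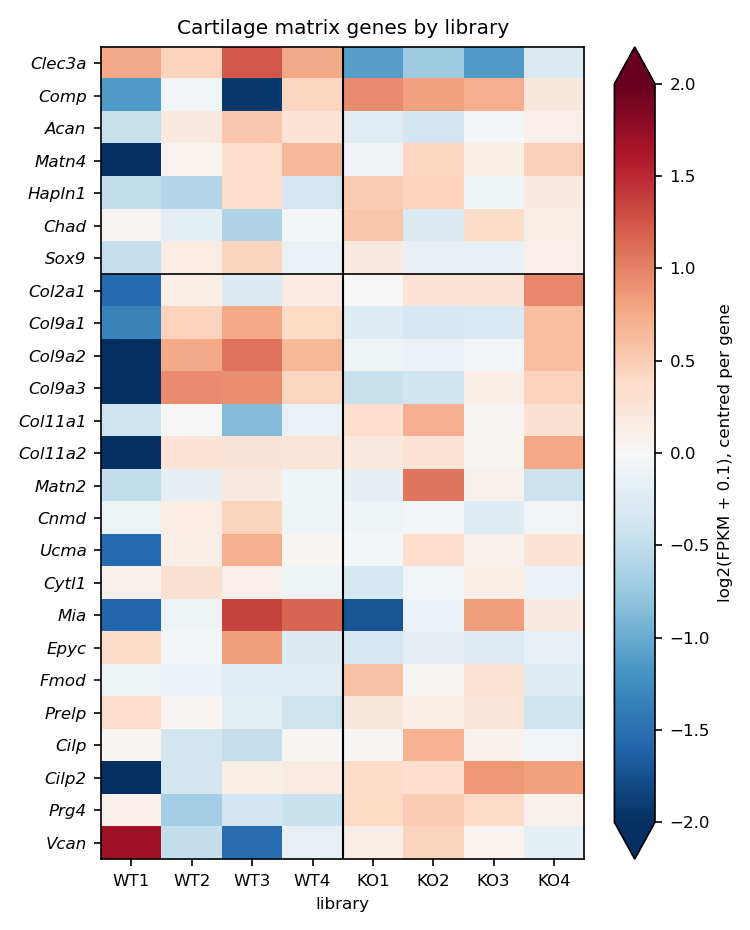
Colour gives log2(FPKM + 0.1) minus the gene's own mean over the 8 libraries, in tested members (above the line) and tested collagens and other matrix genes of cartilage, with colours saturated beyond 2. WT1 is lowest for Matn4, Col2a1, Col9a1, Col9a2, Col9a3, Col11a2, Ucma and Cilp2, and by less for Acan, Sox9 and Matn2. Mia is low in WT1 but lower in KO1, and Clec3a and Hapln1 are not lowest in WT1.

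Of the osteoblast markers, Col1a1 was higher in KO, as Comp was on average. The summed FPKM of all 8 markers was 111.4 to 679.6 in WT and 682.7 to 851.2 in KO without overlap, and WT3, the library lowest in Comp, was lowest here too, although WT1, low in Comp, was the highest WT library. Of the 8, 1 (Col1a1) was called higher in limma (log2 fold change 1.28, standard error 0.42, adjusted p = 0.947). All 8 had values above 0, where 66.5% of all tested genes did. Over all tested genes, 4.61% were called higher and 0.507% lower, the reference for this and the other marker lists. Without Col1a1, the osteoblast sums overlapped, at 47.25 to 534.9 in WT and 264.8 to 427.2 in KO, with WT1 the highest of the 8 libraries. Of 4 tested tendon markers, 0 were called in limma, and their sum, with the low Kera, was 8.73 to 12.7 in WT and 9.77 to 16.2 in KO. Of the 7 marrow markers 1 was called higher (Hbb-bt), and of the 6 tested muscle markers 1 (Mylpf), both with adjusted limma p-values of 0.947. Of the 8 cochlear markers 0 were called. Their part in the values of Comp and Clec3a was not tested.

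The genes whose values ran most like Comp and Clec3a over the 8 libraries were found as the smallest mean absolute difference in log2(FPKM + 0.1), each gene centred on its own mean, among the 14125 genes that reached a mean FPKM of 1. For Comp they were Clec11a (0.269), Lmo2 (0.27), Cdkn2c (0.288), Col1a1 (0.299) and B3gnt8 (0.3), where the SD of Comp itself was 1.02. All 5 were lowest in WT3, as Comp was. Clec11a encodes a growth factor of bone and marrow stroma, and Col1a1 the main collagen of bone. Of the 5, only Col1a1 is in the marker lists above, and the tissue source of Comp was not tested. For Clec3a, with an SD of 0.925, they were Tectb (0.31), Qpct (0.335), Rbm12b1 (0.357), Lmntd1 (0.388) and A2m (0.415). Tectb, which encodes a glycoprotein of the tectorial membrane, had an FPKM of 0.824, 1.58, 1.95 and 1.40 in WT and 0.362, 0.462, 0.554 and 0.936 in KO. All 5 were highest in WT3, as Clec3a was. In this ranking, 0 of the other cartilage members were among the 5 nearest to either gene. With only 5 of 14125 genes taken, that count does not show whether the members ran together. The ranking uses the KO and WT difference along with the spread within groups, and the 8 libraries share the genotype split. It also favours genes that share the extreme value of Comp or Clec3a in WT3, so that likeness is no separate finding.

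**Figure D4:**
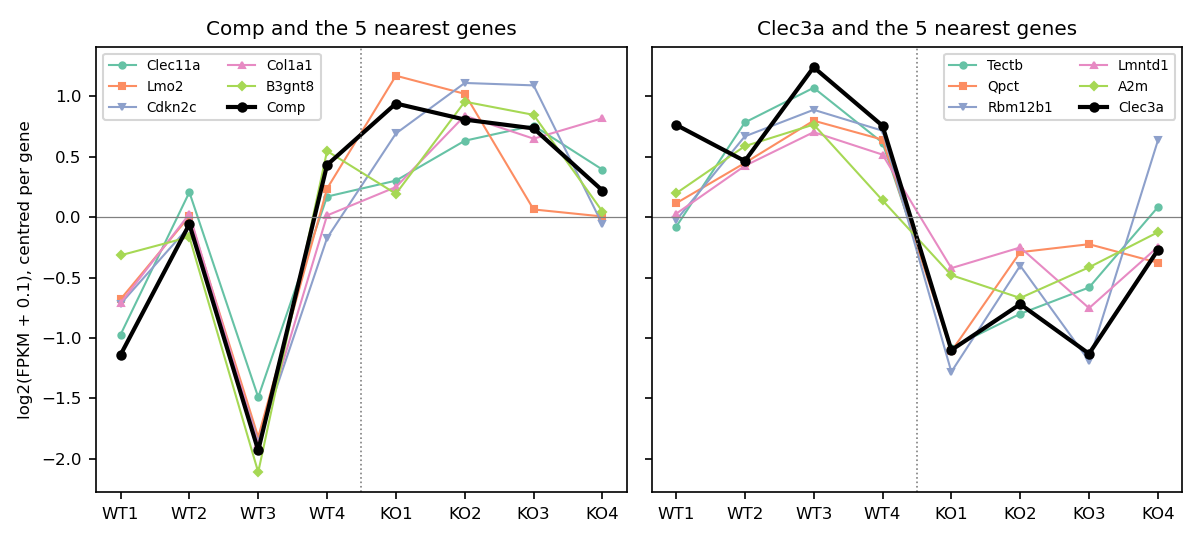
Centred log2(FPKM + 0.1) (vertical axis) in the 8 libraries (horizontal axis; dotted line between WT and KO) for Comp (left, black) and Clec3a (right, black) with their 5 nearest genes in colour. The Comp profile dips in WT3 along with its neighbours, and Clec3a and its neighbours peak in WT3, a likeness that the choice of near genes favours.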

How the data were processed

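Cochlear RNA of 4 WT and 4 KO libraries was analysed, grouped by the sample titles. Reads were paired-end and mapped with Hisat2 by the authors, who deposited 1 FPKM value for each gene in each library. The tool and annotation behind the FPKM are not given in the sources used here. The labels name mm9, but 19771 of the 21895 genes, all 9 members among them, have the coordinates of GENCODE M21 on GRCm38, which was used. The authors' DESeq2 test needs counts and was not repeated. FPKM give no read depth, so no counting interval is given, and 0 per-sample columns were left unused.

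The members and gene lists were chosen with earlier results of these data known. The log2 of FPKM plus 0.1 was fitted with limma 3.58.1 in R 4.3.3, with genotype as the only factor and a mean-variance trend, over the 14990 genes whose mean FPKM reached 0.5. The threshold for a call was an unadjusted p-value of 0.05 (two-sided), and Benjamini-Hochberg adjusted values cover all tested genes. On simulated data, 185 of 200 genes changed by 2 on the log2 scale were called at the unadjusted and 142 at the adjusted threshold. The simulated errors were independent between genes, without the shared deviations of WT1 and WT3, and the shift exceeded that of any tested member. These counts therefore do not give the power in the real libraries. Named were the members, the called genes and the first 2 genes of each cartilage list, and the 5 nearest genes of Comp and Clec3a. At most 0.188% of the 50-base words of a member (Hapln1) occur in another gene. Matn4, Hapln1 and Chad overlap a gene on the opposite strand, and the libraries were strand-specific, but the counting is not stated to use the strand.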

Additional observations from a re-analysis of the deposited data

How the results depend on the processing

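Alternatives were another pseudocount (1), filter (none, or 1 FPKM), scaling (by median ratio or quantiles) or variance model (no trend), the libraries numbered 1 to 3, a replicate block, and single libraries left out. Leaving out WT1 and WT3 together was added after the data were seen. As single libraries were left out, the genes called ranged from 347 (without KO3) to 2922 (without WT1), the called cartilage genes outside the members from 3 (without KO2 or KO3) to 18 (without WT1), and the median log2 fold change of the tested members from -0.125 (without WT1) to 0.433. Without WT1 and WT3 together, 2430 genes were called and the members' median was -0.00918. The cause was not tested. Of the 6 cartilage genes called in all libraries, Col11a1, Prg4 and Chst3 were called whichever single library was left out, whereas Chsy1 was lost without WT3, KO2 or KO3, Pth1r without WT1, WT3, KO2, KO3 or KO4, and Cilp2 without WT2 or any KO library. With quantile normalization, 888 genes were called, 378 higher and 510 lower. Replicate numbers are shared between groups, but the deviations of same-numbered libraries correlated at 0.419, -0.24, -0.17 and 0.21, so the numbers were not taken as pairs. With the replicate block, 838 genes were called, 738 higher and 100 lower, 8 of the other cartilage genes were higher, and the members' median stayed at 0.384.

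Directions also turned in genes that were not called in all libraries. Adamts1 was -0.0797 with median-ratio scaling, -0.091 with quantile normalization and -0.189 without WT1 and WT3. With quantile normalization, Xylt1 was -0.0194 and Thbs2 -0.018. In the libraries numbered 1 to 3, Adamts4 was 0.121 and Bcan 0.145. Over single libraries left out, the range was -0.173 to 0.1 for Adamts1, -0.44 to 0.237 for Adamts4, -0.48 to 0.28 for Bcan, -0.596 to 0.0845 for Ncan, -0.629 to 0.0746 for Col9a1, -0.0841 to 0.366 for Xylt1, -0.00132 to 0.824 for Thbs1 and -0.0232 to 0.477 for Matn2.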

Other observations

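Some cartilage genes of the lists were under the minimum level for testing. Col10a1, the collagen of hypertrophic cartilage, had an FPKM of 0.0132 to 0.332 in WT and 0.0719 to 0.247 in KO, and Ihh, the signal of prehypertrophic chondrocytes, had 0.0880 to 0.468 in WT and 0.279 to 0.657 in KO. Snorc, a proteoglycan of cartilage, was listed at 0 in WT1, WT3 and KO2 and reached 0.778 in KO4. By contrast Cnmd, the chondromodulin gene, was at 36.9 to 53.9 in WT and 33.7 to 39.3 in KO, and Ucma at 14.4 to 70.2 in WT and 41.3 to 53.9 in KO.

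Kera, a tendon and cornea proteoglycan singled out after its values were seen, was at 0.143 to 0.346 in WT and 0 to 0.0555 in KO, without overlap, at levels under the minimum for testing. Epyc, a small proteoglycan of cartilage and the inner ear, was at 54.1, 40.8, 75.0 and 34.7 in WT and 32.9, 37.1, 35.0 and 37.7 in KO. On the log2 scale its difference was -0.46 (limma adjusted p = 0.947, standard error 0.23). Epyc was called lower in the libraries numbered 1 to 3 (-0.65), with quantile normalization (-0.545) and without WT4 (-0.624), but not in the 8 libraries.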
